A study of Rattus norvegicus with 24 samples.

Results

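The 7 inflammatory chemokine genes Cxcl1, Cxcl2, Cxcl10, Ccl2, Ccl3, Ccl4 and Ccl5 and the atypical receptor gene Ccrl2 were followed in blood mononuclear cells of rats. The 8 genes were chosen by symbol from the 14218 genes that the platform annotation names by a probe set with 1 symbol. Each had 1 such probe set: 1387316_at for Cxcl1, 1368760_at for Cxcl2, 1387969_at for Cxcl10, 1367973_at for Ccl2, 1369815_at for Ccl3, 1370832_at for Ccl4, 1369983_at for Ccl5 and 1398591_at for Ccrl2. All 8 probe sets passed the filter on low values, which kept 20709 of 31099 probe sets.

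Expression was measured on 24 Affymetrix arrays in 12 groups of 2, each array from a separate female Wistar rat that was bled out under deep anaesthesia. Healthy rats (NOCIA, NORA in the labels) were sampled at baseline (T0), at 1 hour and at 34 days and received no therapy. All other rats had collagen-induced arthritis (CIA, RA in the labels), raised by bovine type II collagen in Freund's adjuvant, and were sampled untreated at T0, or at 1 hour or 34 days in 1 of 4 arms. Rats of the MS arm (AP in the labels) received mechanical stimulation with a needle, those of the MTX arm methotrexate by peritoneal injection, those of the PLA arm saline by the same route, and those of the ANE arm no therapy but isoflurane instead of ether at sampling. The MS, MTX, ANE and PLA arms share the CIA T0 arrays as their baseline. Their changes therefore share that baseline's error, and they are set side by side without a correlation or an overlap between arms. The sources used here do not give the ages of the rats.

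Chemokines are small secreted proteins that draw leukocytes along a gradient. Cxcl1 and Cxcl2 act on Cxcr2 and attract neutrophils, Cxcl10 acts on Cxcr3 of activated T and NK cells and is induced by interferons, Ccl2 acts on Ccr2 of monocytes, and Ccl3 and Ccl5 act on Ccr1. Ccl4, like Ccl3 and Ccl5, attracts monocytes and T cells. Ccrl2 binds the attractant chemerin (Rarres2) without classical signalling and presents it to cells that carry Cmklr1. Transcription of several of these genes is driven by NF-kB downstream of Tnf and Il1b, and Ccl5 is also made constitutively by cytotoxic lymphocytes.

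Bases before the annotated start of Cxcl1, Cxcl2 and Cxcl10 are shown because these 3 genes hold matches to an NF-kB motif. Sequences are from RefSeq (GRCr8), 250 bases each, 5′ to 3′ on the strand of the gene, at chr14:17479322-17479571 (minus strand) for Cxcl1, chr14:17467256-17467505 (minus strand) for Cxcl2 and chr14:15988816-15989065 (plus strand) for Cxcl10. Capitals mark matches to the NF-kB site, to the interferon response core (TTTC, any 2 bases, TTTC) and to the TATA box TATAAA, each searched on both strands.
Cxcl1: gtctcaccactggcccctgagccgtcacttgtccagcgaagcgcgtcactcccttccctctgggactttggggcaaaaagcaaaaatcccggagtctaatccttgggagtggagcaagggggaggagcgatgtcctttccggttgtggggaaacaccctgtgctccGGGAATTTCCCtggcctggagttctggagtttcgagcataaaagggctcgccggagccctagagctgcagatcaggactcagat
Cxcl2: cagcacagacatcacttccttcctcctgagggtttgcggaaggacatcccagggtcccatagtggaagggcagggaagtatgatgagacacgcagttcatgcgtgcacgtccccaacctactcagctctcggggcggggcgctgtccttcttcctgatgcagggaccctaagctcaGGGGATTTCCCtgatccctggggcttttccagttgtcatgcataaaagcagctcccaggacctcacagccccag
Cxcl10: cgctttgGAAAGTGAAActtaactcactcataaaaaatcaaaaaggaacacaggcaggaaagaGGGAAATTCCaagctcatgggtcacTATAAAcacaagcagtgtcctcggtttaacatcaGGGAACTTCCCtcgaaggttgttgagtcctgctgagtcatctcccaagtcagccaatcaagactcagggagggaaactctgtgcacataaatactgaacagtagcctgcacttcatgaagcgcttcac
In Cxcl1 the capitals are NF-kB matches on both strands that overlap between 84 and 74 bases before the start, and in Cxcl2 they lie between 74 and 64 bases before it. In Cxcl10, read from the left, they are the interferon core (on the opposite strand), an NF-kB site at 187 to 178 bases, a TATA box at 162 to 157 bases, and overlapping NF-kB matches at 128 to 118 bases before the start. Of 33469 rat promoters in the table, 6.33% hold the NF-kB letters, 3.41% the interferon core and 12.9% the TATA box in this window. The 3 members were chosen for their NF-kB letters, and the other 2 motifs were found in 1 of the 3. The table's entry for Ccrl2, whose first base lies inside the annotated gene, held none of the motifs and is not counted, since it may not be the upstream window. A match describes letters and is not a measured site. Entries for Ccl2, Ccl3, Ccl4 and Ccl5 were not used here. No annotated gene lies between Cxcl1 and Cxcl2 on chromosome 14, nor between Ccl3 and Ccl4 on chromosome 10, which also holds Ccl2 and Ccl5. Ccrl2 lies on chromosome 8.

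**Figure D1:**
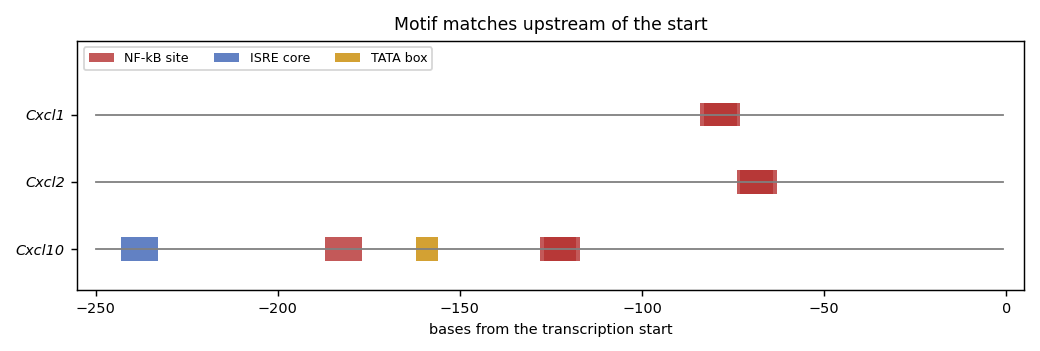
Matches to the NF-kB site, the interferon response core (ISRE) and the TATA box upstream of Cxcl1, Cxcl2 and Cxcl10, with the distance in bases from the annotated start on the x axis and 1 line per gene. Darker blocks are overlapping matches; the match nearest to the start ends 74 bases before it in Cxcl1, 64 in Cxcl2 and 118 in Cxcl10.

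Below, a level is an RMA log2 value of 1 array, the arrays within a group are named rep 1 and rep 2, and differences are on the log2 scale, each with the SE of the limma fit (n = 2 arrays in each group). A member is called at an adjusted p (Benjamini-Hochberg over 20709 probe sets) under 0.05. It is said to pass the study's thresholds at an unadjusted p under 0.05 and a change of over 2-fold, a rule without correction for the number of probe sets. Levels of different genes are not compared, since probe sets differ in response.

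The arrays that stood apart in an earlier analysis of these data were rep 1 of MS at both times, rep 1 of ANE at 1 hour, and rep 2 of PLA at 1 hour. All 4 had high levels of 14 platelet markers (mean centred level 0.90 to 1.31, against -0.69 to 0.49 in the other 20 arrays). The defining markers Pf4 (14.22 to 14.71), Lyz2, S100a8, Cd3e, Prf1 and Cd79b of platelets, monocytes, neutrophils, T cells, cytotoxic cells and B cells were above the 40th percentile on all 24 arrays. In a mixed cell sample, fewer cells of a type and less RNA per cell cannot be told apart. The labels put RNA extraction in a single batch.

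Cxcl1 had the widest range of the 8 genes, from 4.07 to 12. At T0 its level was 10.06 and 9.57 in NOCIA (rep 1 and rep 2) and 5.86 and 4.07 in CIA, so that the groups did not overlap and 1 CIA array lay below the 40th percentile of its array. At 1 hour it was 9.65 and 10.90 in NOCIA, 7.17 and 8.94 in MS, 12 and 10.34 in MTX, 6.56 and 9.08 in ANE, and 9.92 and 11.64 in PLA. Every array of the 4 arms at 1 hour lay above both CIA T0 arrays. At 34 days the values were 8.24 and 8.03 in NOCIA, 5.35 and 7.58 in MS, 6.50 and 8.74 in MTX, 9.38 and 9.75 in ANE, and 10.22 and 8.86 in PLA. Both ANE and both PLA arrays lay above every MS and MTX array at that time, while 1 MS array lay within the CIA T0 range. Ordered by mean, groups ran from CIA T0 (4.96) to MTX at 1 hour (11.17), and 10 of the 11 neighbouring pairs overlapped. NOCIA at 34 days (8.14) and PLA at 34 days (9.54) were the pair that did not.

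Cxcl2, the neighbour of Cxcl1, was high on every array (8.79 to 12.79). At T0 it was 11.44 and 11.19 in NOCIA and 9.0 and 9.19 in CIA, again without overlap. One hour later the levels were 11.91 and 11.77 in NOCIA, 10.18 and 11.67 in MS, 12.51 and 12.06 in MTX, 8.79 and 12.79 in ANE, and 11.11 and 12.04 in PLA. The lowest and the highest value of all 24 arrays were thus the 2 ANE arrays at 1 hour. At 34 days it was 11.60 and 10.75 in NOCIA, 9.23 and 9.30 in MS, 9.26 and 10.85 in MTX, 10.94 and 11.88 in ANE, and 12.11 and 12.05 in PLA. The MS arrays lay just above the CIA T0 arrays, and the MTX arrays reached from there to just above the lower NOCIA array. Of the 11 neighbouring pairs of groups by mean, 9 overlapped.

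Cxcl10 was dimmer, from 4.27 to 8.45, with 22 of 24 arrays above the 40th percentile. Its levels at T0 were 5.52 and 5.83 in NOCIA and 4.96 and 5.32 in CIA. At 1 hour they were 7.78 and 6.22 in NOCIA, 6.70 and 7.66 in MS, 7.98 and 8.45 in MTX, 4.63 and 6.77 in ANE, and 6.67 and 7.23 in PLA. All 1-hour arrays but ANE rep 1 lay above every T0 array. At 34 days they were 6.77 and 8.14 in NOCIA, 4.27 and 5.38 in MS, 5.58 and 7.35 in MTX, 8.31 and 7.33 in ANE, and 7.59 and 7.59 in PLA. The MS arrays overlapped those of CIA T0, and those of NOCIA, ANE and PLA lay above both.

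Ccrl2, the only receptor among the 8, ranged from 6.48 to 11.28. It was 7.73 and 7.58 in NOCIA and 7.03 and 6.85 in CIA at T0. At 1 hour the arrays gave 10.22 and 8.87 in NOCIA, 9.65 and 10.96 in MS, 11.23 and 11.28 in MTX, 6.82 and 10.71 in ANE, and 8.09 and 9.75 in PLA. MTX held the highest 2 of all 24 values, and ANE rep 1 stayed below CIA T0. At 34 days it was 8.07 and 8.32 in NOCIA, 6.48 and 7.18 in MS, 7.42 and 8.33 in MTX, 8.77 and 9.0 in ANE, and 9.71 and 9.37 in PLA. By mean the groups ran from MS at 34 days (6.83) to MTX at 1 hour (11.26), with 9 of 11 neighbouring pairs overlapping.

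Ccl3 (macrophage inflammatory protein 1 alpha) had a narrower range, from 9.32 to 11.81. It was 10.29 and 10.23 in NOCIA and 10.37 and 10.07 in CIA at T0. The 1-hour values were 11.63 and 11.46 in NOCIA, 10.27 and 11.61 in MS, 11.61 and 11.68 in MTX, 11.81 and 11.37 in ANE, and 11.08 and 11.81 in PLA. All of these but MS rep 1 exceeded every T0 array. At 34 days the levels were 11.75 and 11.73 in NOCIA, 9.32 and 10.36 in MS, 9.93 and 10.95 in MTX, 10.67 and 10.45 in ANE, and 11.30 and 10.74 in PLA. NOCIA thus held its 1-hour level and lay above every array of the 4 arms at that time.

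The other 3 ligands differed from these. Ccl2 ran from 4.33 to 8.56, with 5 arrays at or below the 40th percentile, and all 11 neighbouring pairs of groups overlapped. Its arrays disagreed most in PLA at 34 days, with 7.67 in rep 1 and 4.70 in rep 2. Ccl4 (8.62 to 12.63), the partner of Ccl3 in the genome, had both its extremes in ANE at 1 hour, with 12.63 in rep 1 and 8.62 in rep 2. Ccl5 was near the top of the scale on every array (13.08 to 14.23), where 99.6% to 99.9% of probe sets were dimmer, and spread by no more than 0.80 between the arrays of a group.

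**Figure D2:**
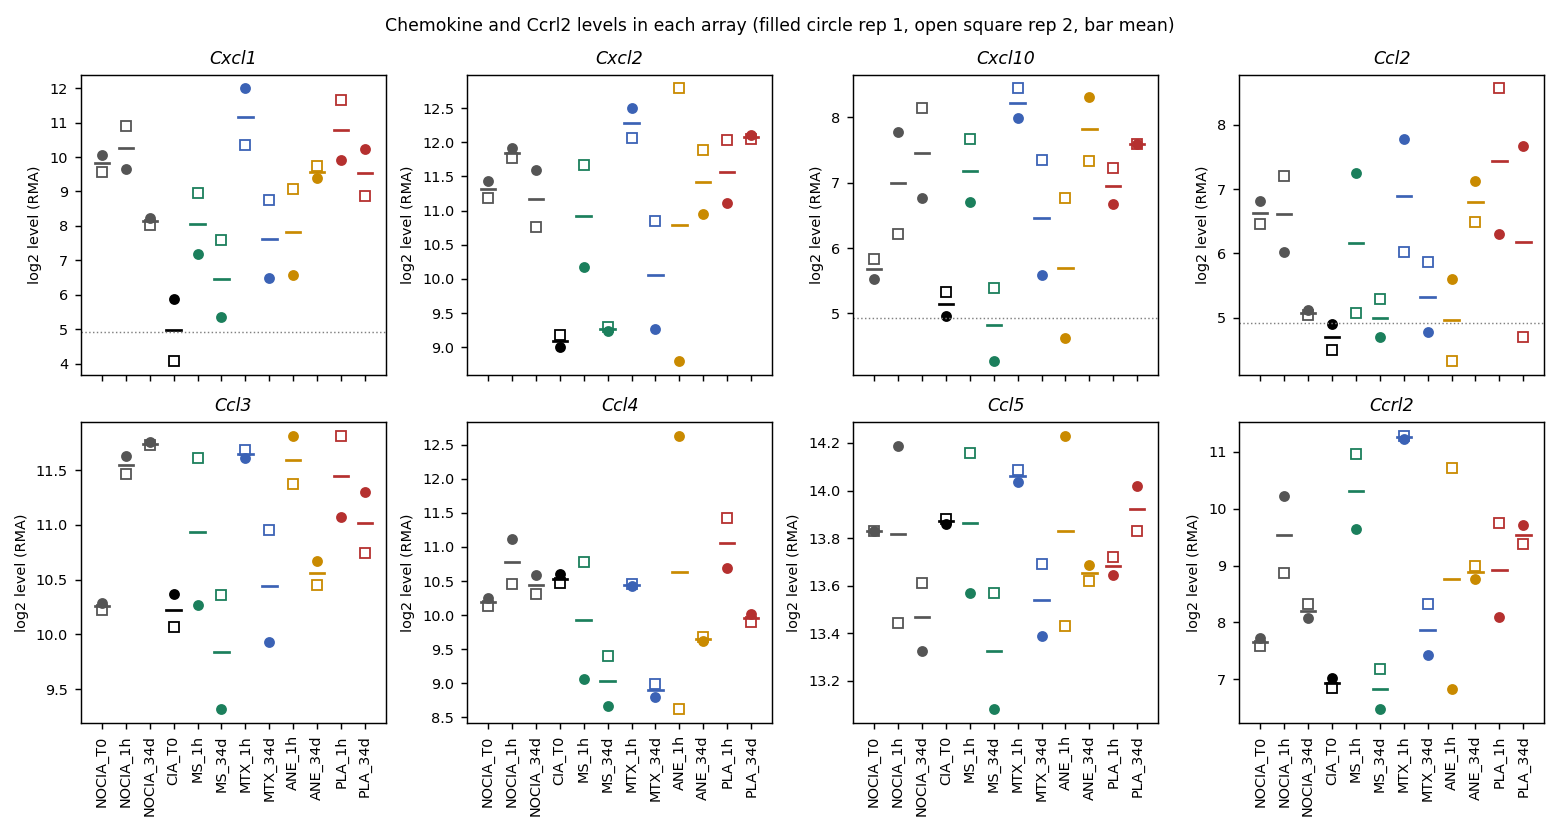
Level (RMA log2, y axis, own scale in each panel) of the 8 genes in each array of the 12 groups (x axis); rep 1 is drawn as a filled circle and rep 2 as an open square, short bars the mean of 2 arrays, and the dotted line the mean 40th percentile of the arrays. Cxcl1 and Cxcl2 are low in CIA T0, and in ANE at 1 hour the 2 arrays lie 3.88 apart for Ccrl2 and 4.01 apart for Ccl4.

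Arthritic and healthy rats were first compared before therapy. Cxcl1 was lower in CIA (difference -4.85 ± 1.02, unadjusted p = 0.000242, adjusted p = 0.556 by limma; no fold is given, since 1 CIA array was below the 40th percentile) and Cxcl2 4.65-fold lower (-2.22 ± 0.88, adjusted p = 1). These 2 of 8 members passed the study's thresholds as lower and none as higher, beside 0.319% of all probe sets lower and 0.42% higher. No member was called, against 0.00483% of probe sets. The median difference of the 8 was -0.62, beside 0.01 over all probe sets. Cxcl1 passed the thresholds without any 1 of the 4 arrays (-5.75 to -3.95), and Cxcl2 in none of these fits (-2.34 to -2.09). Without the 4 arrays that stood apart, none of which is in these groups, the same differences were called (adjusted p = 0.014 for Cxcl1 and 0.0303 for Cxcl2), with an SE of 0.78 in place of 1.02 and 0.44 in place of 0.88. The 7 B cell markers were all lower in CIA (median -0.72), as were 13 of 14 platelet markers (median -0.34). Of 9 neutrophil markers 5 were higher and 4 lower, and of 12 monocyte markers 9 were higher and 3 lower. Of 15 cytotoxic markers 10 were higher, and of 15 T cell markers 6. Their part in the result was not tested.

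At 1 hour, the question was how each arm stood against its own baseline. In MTX, 6 of 8 members passed the study's thresholds as higher, beside 0.377% of probe sets. They were Cxcl1 (6.20 ± 1.02, adjusted p = 0.0779), Ccrl2 (4.31 ± 0.87, adjusted p = 0.28), Cxcl2 (3.19 ± 0.88), Cxcl10 (3.07 ± 0.72), Ccl2 (2.20 ± 0.94) and Ccl3 (1.42 ± 0.42), with adjusted p-values of 0.70 to 1 for the last 4. All but Ccl2 passed without any 1 of the 4 arrays, and Ccl2 was lost without MTX rep 1 or either CIA array (lowest value 1.32). Without the arrays that stood apart, Cxcl1 (adjusted p = 0.00654), Cxcl2 (0.00925) and Ccrl2 (0.000547) were called in MTX. The same 6 genes passed in PLA, beside 0.71% of probe sets higher. There Cxcl1 stood at 5.82 ± 1.02 (adjusted p = 0.181), Ccl2 at 2.74 ± 0.94, Cxcl2 at 2.48 ± 0.88, Ccrl2 at 1.98 ± 0.87, Cxcl10 at 1.81 ± 0.72 and Ccl3 at 1.22 ± 0.42. Without PLA rep 2, 1 of the arrays that stood apart, only Cxcl1 passed, at 4.95. Cxcl10 was also lost without CIA rep 1, Ccl2 and Ccl3 without CIA rep 2, and Ccrl2 without either.

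In MS at 1 hour 3 members passed as higher, beside 0.613% of probe sets: Ccrl2 (3.36 ± 0.87), Cxcl1 (3.09 ± 1.02) and Cxcl10 (2.04 ± 0.72), each with adjusted p = 0.55. Cxcl1 was lost without MS rep 2 or CIA rep 2 (lowest value 2.19), and Cxcl10 without MS rep 2 or CIA rep 1 (1.56). Without the arrays that stood apart, which leaves MS rep 2 alone, the 3 differences were 4.02, 3.98 and 2.52, Cxcl2 and Ccl3 passed too, and Ccrl2 was called (adjusted p = 0.00305). In ANE the 2 that passed were Cxcl1 (2.86 ± 1.02) and Ccl3 (1.37 ± 0.42), beside 0.831% of probe sets higher. The ANE arrays disagreed in marker levels too: 9 neutrophil markers had a mean centred level of -1.40 in rep 1 and 2.02 in rep 2, and 12 monocyte markers -1.45 and 0.99. Cxcl1 was lost in ANE without rep 2 (1.60) or CIA rep 2. Without the arrays that stood apart, which leaves ANE rep 2 alone and assumes that it varies like the other groups, 6 members passed and 4 of them were called: Ccrl2 (3.76), Cxcl2 (3.70) and Cxcl1 (4.12) as higher and Ccl4 (-1.91) as lower. In NOCIA, which had no therapy, Ccrl2 (1.89 ± 0.87) and Ccl3 (1.29 ± 0.42) passed as higher, beside 0.391% of probe sets, and Ccrl2 was lost without NOCIA rep 1 at 1 hour (1.21) or either T0 array. No member was called in any of the 5 arms at 1 hour with all arrays, and whether the arms differed from each other at 1 hour was not tested. The share of all probe sets called was 0.00966% in MS, 0.0145% in MTX, 0.0338% in ANE, 0% in PLA and 0.00483% in NOCIA. Platelet markers were higher than at baseline in the 4 arthritic arms (14 of 14 genes, median 0.25 in MTX to 1.02 in MS), and so were most neutrophil markers in MTX (8 of 9, median 0.83), PLA (7 of 9, 0.80), MS (8 of 9, 0.51) and ANE (7 of 9, 0.41). In MTX the platelet markers overlapped CIA T0, with mean centred levels of 0.20 and -0.62 against -0.45 and -0.69. In NOCIA at 1 hour neutrophil markers were higher too (8 of 9, median 0.70), and platelet markers mostly lower (10 of 14, median -0.16). Mean centred levels overlapped NOCIA T0 in both lists. They were -0.43 and 0.57 against -0.36 and -0.61 for neutrophil markers, and -0.52 and -0.04 against -0.31 and -0.13 for platelet markers. Monocyte markers were lower in MS (11 of 12, median -1.02), ANE (11 of 12, -0.51), MTX (11 of 12, -0.23), PLA (8 of 12, -0.18) and NOCIA (8 of 12, -0.30), and the part of these cells was not tested. The mean centred level of the monocyte markers in ANE, MTX and PLA overlapped that of CIA T0.

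**Figure D3:**
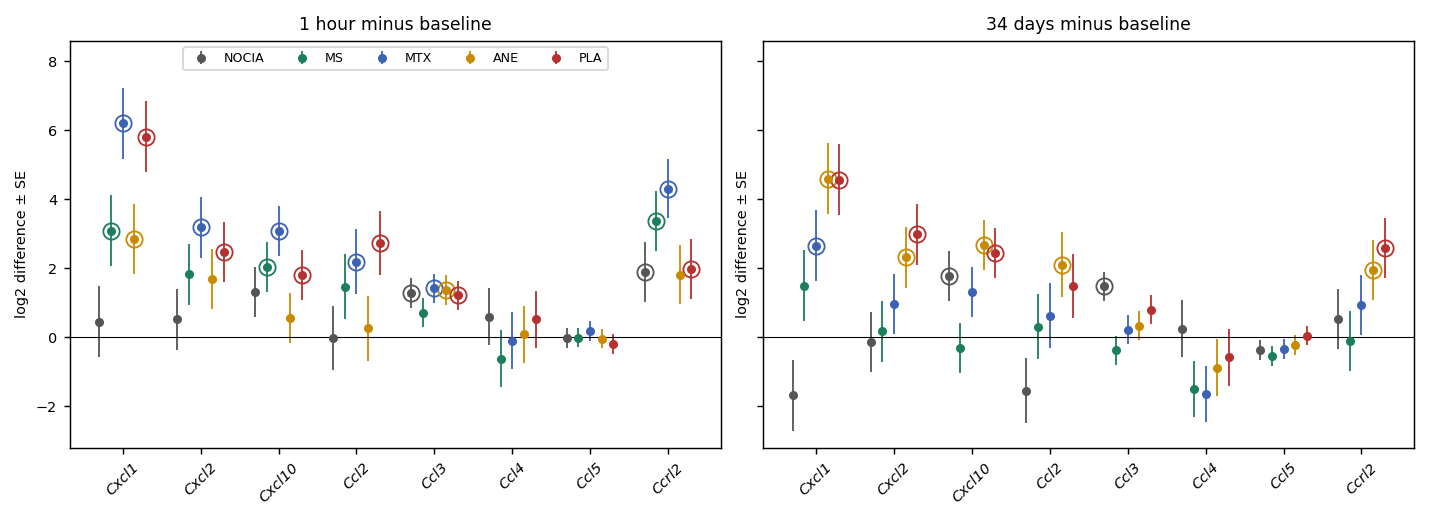
Log2 difference from baseline (y axis, point and SE, n = 2 arrays per group) of the 8 genes at 1 hour (left) and 34 days (right) in the 5 arms; large rings mark differences past the study's thresholds. Cxcl1 stands highest in MTX (6.20) and PLA (5.82) at 1 hour, and in ANE (4.60) and PLA (4.58) at 34 days, while Ccl4 and Ccl5 carry no ring.

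At 34 days 5 of 8 members passed as higher in ANE and 4 of 8 in PLA, the 2 control arms, while Ccl4 stood at -0.89 in ANE and -0.58 in PLA (SE 0.82) and Ccl5 at -0.22 in ANE (SE 0.28), short of the thresholds. In ANE, the 5 members, beside 0.183% of probe sets, were Cxcl1 (4.60 ± 1.02), Cxcl10 (2.68 ± 0.72), Cxcl2 (2.32 ± 0.88), Ccl2 (2.11 ± 0.94) and Ccrl2 (1.94 ± 0.87). In PLA it was 4, beside 0.328%, namely Cxcl1 (4.58 ± 1.02), Cxcl2 (2.98 ± 0.88), Ccrl2 (2.60 ± 0.87) and Cxcl10 (2.45 ± 0.72). Adjusted p-values were 0.612 to 1 in both arms, and no probe set was called in either. At an unadjusted p under 0.05, 306 probe sets passed in ANE (1.48% of all) and 1003 in PLA (4.84%). In ANE, Ccl2 and Ccrl2 were lost without any 1 of the 4 arrays and Cxcl2 without ANE rep 2 or CIA rep 1. The 4 members of PLA passed in each such fit, and 3 of them (Cxcl1, Cxcl2 and Ccrl2) were called without the arrays that stood apart (adjusted p 0.0116 to 0.0327). Neutrophil markers were higher than at baseline in ANE (8 of 9, median 0.82) and PLA (7 of 9, median 0.78), and their part was not tested.

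In MTX only Cxcl1 passed at 34 days (2.65 ± 1.02), beside 0.159% of probe sets higher, and it was lost without MTX rep 2 (1.53) or CIA rep 2. In MS none passed, beside 5.22% higher and 8.62% lower. The members' median difference in MS was -0.22, beside -0.15 over all probe sets. Without the arrays that stood apart, Ccl4 was called as lower in MTX (-1.64, adjusted p = 0.0198) and in MS (-1.13, adjusted p = 0.0478), and Cxcl1 (2.61) passed as higher in MS. That fit leaves MS at 34 days with rep 2 alone, which is assumed to vary like the other groups. With all arrays, cytotoxic markers were lower than in CIA T0 in MTX (14 of 15, median -0.86) and in MS (13 of 15, median -1.29). T cell markers were lower as well (14 of 15 in each, median -0.38 in MTX and -1.21 in MS). Platelet markers were higher (14 of 14 in each, median 0.58 in MTX and 1.49 in MS). Their mean centred level in MTX overlapped that of CIA T0 (0.45 and -0.67 against -0.45 and -0.69). The part of these cells in the change of Ccl4 was not tested. In NOCIA, Ccl3 rose by 1.48 ± 0.42 (adjusted p = 0.0321), the only call of a member in the comparisons of 2 groups, beside 6.31% of all probe sets called higher. That call was lost without any 1 of the 4 arrays (adjusted p 0.125 to 0.171) while the difference stayed at 1.45 to 1.51. Cxcl10 also passed the study's thresholds in NOCIA (1.78 ± 0.72, adjusted p = 0.135), beside 5.54% of probe sets, and was lost without NOCIA rep 2 at 34 days (1.09) or either T0 array. In NOCIA at 34 days all 7 B cell markers (median -1.61), all 15 T cell markers (median -0.67) and 14 of 15 cytotoxic markers (median -0.98) were lower and 8 of 9 neutrophil markers higher (median 0.90), and their part in the change of Ccl3 was not tested.

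The arms were then set against PLA at 34 days. All 8 members were lower in MS, and in 7 of 8 the MS and PLA arrays did not overlap, beside 32.8% of all probe sets with MS below PLA in this way. The study's thresholds were passed as lower by 5 members, beside 3.04% of probe sets: Cxcl1 (-3.08 ± 1.02, 8.44-fold), Cxcl2 (-2.81 ± 0.88), Cxcl10 (-2.77 ± 0.72), Ccrl2 (-2.71 ± 0.87) and Ccl3 (-1.18 ± 0.42). Each had an adjusted p of 0.179, no member or other probe set was called, and 4796 probe sets (23.2% of all) had an unadjusted p under 0.05. Without MS rep 1, which stood apart, Cxcl1 was at -1.96 and Ccl3 at -0.66 and both were lost, and so were they without PLA rep 1. Cxcl2, Cxcl10 and Ccrl2 passed in every such fit. Neutrophil markers (8 of 9, median -1.25), monocyte markers (11 of 12, median -1.19) and cytotoxic markers (14 of 15, median -1.24) were also lower in MS, and platelet markers higher (13 of 14, median 1.55). Their part in the result was not tested.

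In MTX all 8 members were lower than in PLA as well, 6 without overlap, beside 18.1% of probe sets. Cxcl2 alone passed (-2.02 ± 0.88, beside 0.116% of probe sets lower), and it was lost without MTX rep 1 (-1.23) or either PLA array. For Cxcl1 the difference was -1.92 ± 1.02 and for Ccrl2 -1.67 ± 0.87, short of the thresholds. Cytotoxic markers (15 of 15, median -0.90), monocyte markers (11 of 12, median -0.52) and neutrophil markers (7 of 9, median -0.40) were lower in MTX too, and their part was not tested. The mean centred level of the neutrophil markers overlapped between the groups (-0.13 and -0.18 in MTX, -0.24 and 0.38 in PLA). No member passed in ANE against PLA, beside 0.304% of probe sets higher and 0.232% lower. There the difference of Cxcl1 was 0.02 ± 1.02, with a 95% interval of -2.15 to 2.20, which leaves room for a change of over 4-fold either way. Between MS and MTX, Cxcl10 was lower in MS (-1.64 ± 0.72, adjusted p = 0.328), beside 1.13% of probe sets, and was lost without MS rep 1 (-1.08) or MTX rep 2 (-0.76).

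**Figure D4:**
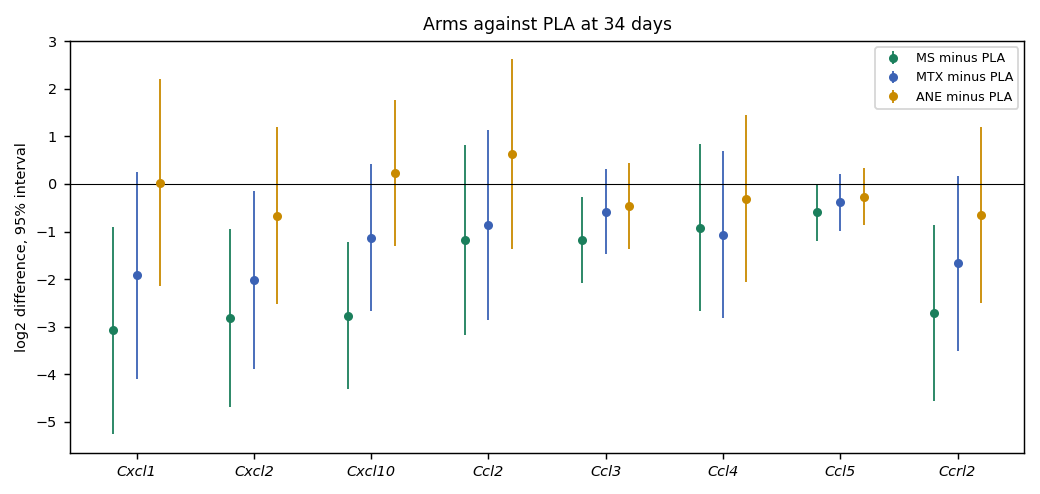
Log2 difference from PLA at 34 days (y axis, point and 95% interval, n = 2 arrays per group) of the 8 genes in MS, MTX and ANE. All MS and MTX points lie below 0, and the MS intervals of Cxcl1, Cxcl2, Cxcl10, Ccl3 and Ccrl2 exclude 0.

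The 34-day change of each arm was tested against that of NOCIA over the same time. Cxcl1 changed by 6.28 ± 1.45 more in ANE than in NOCIA (adjusted p = 0.0325), and was called beside 0.869% of all probe sets called higher. In NOCIA itself Cxcl1 stood at -1.68 ± 1.02 at 34 days. The call was lost without any 1 of the 8 arrays (adjusted p 0.0740 to 0.146), and the difference stayed at 5.38 to 7.18. The same contrast was 6.25 ± 1.45 in PLA (adjusted p = 0.139), 4.33 ± 1.45 in MTX and 3.18 ± 1.45 in MS, all past the study's thresholds. Ccl2 passed in ANE (3.65 ± 1.33) and PLA (3.03 ± 1.33), Cxcl2 in PLA (3.12 ± 1.24), and Ccl3 as lower in MS (-1.86 ± 0.60). The members past the thresholds as higher were 1 in MS, 1 in MTX, 2 in ANE and 3 in PLA, beside 2.37%, 0.835%, 3.2% and 1.3% of probe sets, and the 1 lower in MS stood beside 9.94%. Of the 8 fits that each leave out 1 array, Cxcl1 passed in 2 for MS, 7 for MTX and all 8 for ANE and PLA, Ccl2 in 8 for ANE and 1 for PLA, Cxcl2 in 5 for PLA, and Ccl3 in 8 for MS. CIA T0, the group with the lowest mean of Cxcl1, Cxcl2 and Ccl2, enters each of these contrasts.

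Over 15 comparisons of 2 groups, differences of Ccl4 ran from -1.64 to 0.59 (SE 0.82) and those of Ccl5 from -0.60 to 0.19 (SE 0.28), and neither gene passed a threshold with all arrays in the fit. With 2 arrays in each group, the smallest p of an exact permutation test is 0.333, and all tests rest on the spread pooled over the 12 groups.

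Across the 24 arrays, which share groups and baselines, the levels of the members followed each other unevenly. Pearson's r was 0.86 between Cxcl1 and Cxcl2, 0.82 between Cxcl2 and Ccrl2, 0.80 between Cxcl10 and Ccrl2 and 0.75 between Cxcl2 and Cxcl10. Ccl4 stood away from these, with r of 0.02 to 0.19 to Cxcl1, Cxcl2, Cxcl10 and Ccrl2 but 0.61 to Ccl3 (0.39 without the 4 arrays that stood apart) and 0.66 to Ccl5. Ccl2 was nearest to Cxcl1 (0.71). These values describe the arrays and carry no test.

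**Figure D5:**
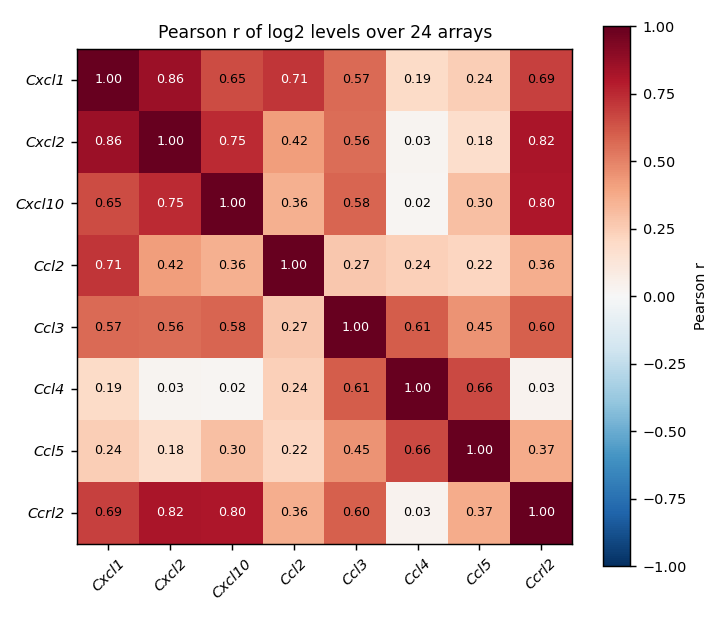
Pearson's r of log2 levels between the 8 genes over 24 arrays (colour scale from -1 to 1). Cxcl1, Cxcl2, Cxcl10 and Ccrl2 form a block of r between 0.65 and 0.86, and Ccl4 and Ccl5 share an r of 0.66.

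Among all kept probe sets with 1 symbol, the genes most like each member by r over 24 arrays were as follows. Cxcl2 was nearest to Ptgs2 (0.92), the inducible cyclooxygenase, Il1b (0.92) and G0s2 (0.88), a lipolysis inhibitor. Ccrl2 was nearest to Tnf (0.91), Oasl (0.88), an interferon-induced gene, and Ptgs2 (0.87). Cxcl10 had Il10 (0.84), Nfkbiz (0.81) and Ccrl2 (0.80) beside it. After Cxcl2, Cxcl1 was nearest to the scavenger receptor Olr1 (0.83) and the protease inhibitor Slpi (0.78). Ccl5 followed the cytotoxic lymphocyte genes Nkg7 (0.99), Gzmk (0.98) and Gzmm (0.96). Ccl4 was nearest to Faslg (0.83), Ifng (0.83) and Chn2 (0.82), of which Faslg and Chn2 fell to rank 131 and 59 without the 4 arrays that stood apart. Ccl3 had Csrnp1 (0.81), Bhlhe40 (0.80) and Ppp1r15a (0.78) nearest, and Ccl2 the transglutaminase Tgm2 (0.77 for each of 2 probe sets) and the chemokine Cxcl3 (0.73). Without those 4 arrays Bhlhe40 was at rank 45 for Ccl3 and Cxcl3 at rank 18 for Ccl2, and the genes named here other than these 2, Faslg and Chn2 were at rank 10 or nearer. Over the means of the 12 groups, Ifng was at rank 74 for Ccl4 (r = 0.72), Faslg at 85 and Chn2 at 65. Ccrl2 was then at rank 17 for Cxcl10 and 1 Tgm2 probe set at rank 19 for Ccl2, with the others named at rank 8 or nearer.

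Mean levels of the marker lists moved with some members over the 24 arrays. The 15 cytotoxic markers had r = 0.97 with Ccl5 and 0.64 with Ccl4, and the 9 neutrophil markers 0.68 with Cxcl2, 0.61 with Ccrl2, 0.58 with Cxcl10 and 0.46 with Cxcl1. For Ccl2 no list exceeded 0.31. The part of cell composition in the members' differences was not tested.

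Receptors of the members showed few differences. Of 24 chemokine receptor genes listed, 14 were tested. Cxcr3, the receptor of Cxcl10, fell by 1.76 ± 0.41 in NOCIA at 34 days (adjusted p = 0.0113) as the only receptor called in any comparison, beside 5.65% of probe sets called lower. The call held only without NOCIA rep 1 at 34 days among the 4 fits that each leave out 1 array (adjusted p 0.0469 to 0.1003). At T0 Cxcr3 was 9.01 and 9.13 in NOCIA and 7.60 and 7.67 in CIA (-1.44 ± 0.41, adjusted p = 0.869). Cxcr2, the receptor of Cxcl1 and Cxcl2, was at 8.94 in ANE 1-hour rep 2, the array with the highest neutrophil markers, and between 3.81 and 6.42 elsewhere. Ccr2, the receptor of Ccl2, passed the thresholds as lower in MS at 1 hour (-1.95 ± 0.82). Its level there was 5.26 on rep 1, which stood apart, and 6.62 on rep 2, against 7.87 and 7.92 in CIA T0. Monocyte markers were lower in that comparison too (11 of 12, median -1.02), and their part was not tested. Ccr1 passed in no comparison, with differences from -1.45 to 1.44 (SE 0.94). Chemerin (Rarres2) and its receptor Cmklr1, which Ccrl2 serves, also passed in no comparison, with differences from -0.29 to 0.48 and from -0.21 to 0.41 over the 19 comparisons.

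Of 30 other chemokine ligands, 17 were tested and none was called in any comparison. The eotaxin Ccl24 stood at 4.51 ± 1.05 in PLA and 2.97 ± 1.05 in MTX at 1 hour, and at -2.89 ± 1.05 in CIA against NOCIA at T0. Cxcl11, which shares Cxcr3 with Cxcl10, passed as higher in MTX at 1 hour (1.08 ± 0.48) and, at 34 days, in PLA (1.54 ± 0.48), ANE (1.07 ± 0.48) and NOCIA (1.06 ± 0.48), and as lower in MS (-1.81 ± 0.48) and MTX (-1.42 ± 0.48) against PLA. Cxcl6, a neutrophil attractant, passed as higher in MS at 34 days against CIA T0 (1.67 ± 0.65) and against PLA (1.56 ± 0.65), where 1 of the 17 passed as higher and 2 as lower, beside 5.32% and 3.04% of probe sets. Xcl1, made by activated lymphocytes, passed as higher in ANE (2.71 ± 0.75) and MTX (1.89 ± 0.75) at 1 hour. Whether the ligands named here passed without any 1 array was not tested. ANE and PLA at 1 hour and MS at 34 days each hold an array that stood apart. Counts past the thresholds were 4 of 17 in MTX, 2 in PLA, 1 in ANE and 0 in MS at 1 hour, all higher, beside 0.377%, 0.71%, 0.831% and 0.613% of probe sets.

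NF-kB genes and inducers were listed as 17 genes, of which 14 were tested. In MTX at 1 hour all 14 lay above baseline (median 0.77, beside 0.01 over all probe sets), 5 passed the study's thresholds (beside 0.377% of probe sets higher) and Tnf (4.99 ± 0.75, adjusted p = 0.0448) and Il1a (1.58 ± 0.19, adjusted p = 0.0103) rose and were called (0.0145% of probe sets were). Both calls were lost without any 1 of the 4 arrays (adjusted p 0.454 to 0.779 for Tnf and 0.193 to 0.337 for Il1a). Il1a was also called in MS at 1 hour (1.34 ± 0.19, adjusted p = 0.0415), a call lost without either CIA array (adjusted p up to 0.818), where Tnf stood at 3.86 ± 0.75 and Il1b at 2.42 ± 1.04. In PLA at 1 hour 3 passed, beside 0.71% of probe sets, Il1b (2.47 ± 1.04), Tnf (2.05 ± 0.75) and Icam1 (1.54 ± 0.53). Tnf was at 5.84 on PLA rep 1 and 8.82 on PLA rep 2, which stood apart, against 5.28 and 5.27 in CIA T0. Il1b was at 10.74 and 11.81 in PLA, against 8.92 and 8.69. Whether these 3 passed without PLA rep 2 was not tested. In ANE and NOCIA, which had no therapy, 11 of the 14 lay above baseline at 1 hour. In each arm 1 passed as higher, beside 0.831% of probe sets in ANE and 0.391% in NOCIA. Tnf was at 6.76 on ANE rep 1, which stood apart, and 7.98 on ANE rep 2. In NOCIA it was at 9.19 and 6.86 at 1 hour, against 5.50 and 5.81 at T0. In NOCIA at 34 days Icam1 (2.20 ± 0.53), Nfkb2 (1.48 ± 0.29), Relb (1.22 ± 0.21) and Rela (1.01 ± 0.25) rose and were called, with adjusted p-values from 0.00214 to 0.017, so that 4 of 14 were called higher beside 6.31% of all probe sets. Relb was called without any 1 of the 4 arrays, while Icam1 was called in 0, Rela in 1 and Nfkb2 in 2 of these 4 fits. In PLA at 34 days Il1b stood at 3.52 ± 1.04 and Nfkbia, the inhibitor that NF-kB itself induces, at 1.31 ± 0.52. In MS against PLA at 34 days 6 of the 14 passed as lower, beside 3.04% of probe sets, among them Nfkbiz (-1.76 ± 0.61), Nfkbia (-1.44 ± 0.52) and Il1b (-2.73 ± 1.04), and none was called. Nfkbia was at 11.17 on MS rep 1, which stood apart, and 12.70 on MS rep 2, against 13.41 and 13.36 in PLA. Il1b was at 9.64 and 9.56 in MS, against 12.35 and 12.30 in PLA. Whether the 6 passed without MS rep 1 was not tested.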

How the data were processed

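Peripheral blood mononuclear cells were isolated on Ficoll, and RNA was labelled with a 3′ kit and hybridised to 24 Affymetrix rat genome arrays. The deposited log2 levels had been made by the authors with RMA (affy package, per the labels), for which no version is named in the sources used here. RMA normalizes arrays to a common distribution, so only relative differences can be seen, and changes of very bright genes may be understated. The methods of the study also name MAS5. Values ran from 2.18 to 15.02, with array medians of 5.49 to 5.58, and were used as RMA values.

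Genes were named from the platform annotation, using only probe sets with 1 symbol (20832 of 31099). The 57 control probe sets were left out, and a probe set was kept if it exceeded the array's 40th percentile on 2 or more arrays. limma 3.58.1 (R 4.3.3) was fitted to the 24 arrays together, 1 coefficient for each group (12 residual degrees of freedom), two-sided, for 15 comparisons of 2 groups and 4 differences of 34-day changes. The fit was tested on simulated data. With 2 arrays per group their number limits the precision, and p-values measure the spread between single rats. Members and gene lists were chosen with earlier results of these data known.

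Besides the members, up to 4 genes per pathway list and comparison past the study's thresholds by the size of the moderated statistic, receptors of the members, Rarres2, Cmklr1, Tnf, Il1b and Nfkbia, and the 3 probe sets most like each member could be named; which of these are described was decided with the values in view. The alternatives tried were a replicate block, only the groups compared, no filter, quantile normalization, leaving out the 4 arrays that stood apart and leaving out each array in turn. Promoters were read from a RefSeq table (GRCr8). The motifs were searched with Python 3.11.15, and protein sequences were not used here.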

Additional observations from a re-analysis of the deposited data

Results flagged for a closer look

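The 34-day change of Cxcl1 differed between the ANE arm and healthy rats by 6.28 on the log2 scale (adjusted p = 0.0325 by limma, a test of the difference itself). Cxcl1 was higher than CIA T0 on 2 of 2 ANE arrays, and lower than NOCIA T0 on 2 of 2 NOCIA arrays. The call was lost without any 1 of the 8 arrays (adjusted p 0.0740 to 0.146 by limma). Mean levels were 9.57 in ANE and 8.14 in NOCIA at 34 days, and 4.96 in CIA and 9.82 in NOCIA at T0. The contrast thus includes the difference between the 2 baselines, and 1 CIA T0 array was below the 40th percentile.

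At 1 hour, both arrays of 1 arm lay above their baseline mean and both of another below it for 3 pairs, and the differences were not tested. The change of Ccl4 in NOCIA exceeded that in MTX by 0.68, and that in MTX minus that in PLA was -0.61. For Ccl5 the change in MTX minus that in PLA was 0.38. All 3 are below 2-fold.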

How the results depend on the processing

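No difference that passed a rule with all arrays changed sign under any alternative. Among the 104 other differences of members, 33 changed sign in at least 1 alternative. Cxcl1 in ANE against PLA at 34 days ran from -0.65 to 0.70 when 1 array was left out.

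Without the 4 arrays that stood apart, members called were 2 in CIA against NOCIA at T0, 1 in NOCIA and in MS, 3 in MTX and 4 in ANE at 1 hour, 2 in NOCIA, 1 in MS and in MTX and 3 in PLA at 34 days, and 1, 2, 4 and 3 in the changes of MS, MTX, ANE and PLA minus that of NOCIA. Members past the study's thresholds were then 5 in MS, 6 in ANE and 3 in PLA at 1 hour, 2 in MS and 3 in MTX at 34 days, 3 in MS and 4 in MTX against PLA, 0 in MS against MTX, and 3 and 6 in the changes of MTX and ANE minus that of NOCIA. All probe sets called then went from 1 to 258 at T0, 1 to 125 in NOCIA, 2 to 22 in MS, 3 to 38 in MTX, 7 to 1051 in ANE and 0 to 7 in PLA at 1 hour, 2477 to 6299 in NOCIA, 1438 to 145 in MS, 0 to 5 in MTX and 0 to 68 in PLA at 34 days, 0 to 5 in ANE against PLA, and 7 to 647, 5 to 1169, 592 to 3794 and 2 to 1902 in the changes of MS, MTX, ANE and PLA minus that of NOCIA.

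With only the groups compared, 6995 probe sets were called in NOCIA and 0 in MS at 34 days. Members called were 4 at T0, 5 in MTX at 1 hour, 5 in NOCIA, 1 in ANE and 3 in PLA at 34 days, and 3, 6 and 4 in the changes of MTX, ANE and PLA minus that of NOCIA. Members past the thresholds were 1 in ANE at 1 hour, 4, 1 and 2 in NOCIA, MS and MTX at 34 days, 3 in MTX against PLA, 0 in MS against MTX, and 5, 4 and 6 in the changes of MS, MTX and ANE.

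The replicate numbers did not pair the samples (correlation of pair differences -0.76 to 0.81 over 66 pairs of groups, 25 above 0.1). With the replicate block, members past the thresholds went from 3 to 4 in MS and 2 to 3 in ANE at 1 hour. In the changes minus that of NOCIA they went from 2 to 3 in MS, 1 to 2 in MTX and 2 to 3 in ANE. No call of a member was lost. No filter and quantile normalization kept the counts of members within 1.5 times. Quantile normalization shifted the median of all probe sets by up to 0.10, and with it the probe sets called went from 592 to 1037, 7 to 16 and 2 to 25 in the changes of ANE, MS and PLA minus that of NOCIA.

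Leaving out 1 array gave these ranges of members past the thresholds: 1 to 1 at T0; at 1 hour 1 to 3 in NOCIA, 2 to 5 in MS, 5 to 6 in MTX, 1 to 5 in ANE and 1 to 6 in PLA; at 34 days 1 to 2 in NOCIA, 0 to 1 in MS, 0 to 2 in MTX, 2 to 3 in ANE and 4 to 5 in PLA; against PLA 3 to 6 in MS, 0 to 4 in MTX and 0 to 1 in ANE; 0 to 2 for MS against MTX; and 1 to 2, 1 to 1, 2 to 2 and 1 to 3 in the changes of MS, MTX, ANE and PLA. Members called ranged from 0 to 2 in ANE at 1 hour, 0 to 4 in MS against PLA, 0 to 1 in the change of MS minus that of NOCIA, and were 0 in the 2 comparisons with a call. The count of all probe sets past the thresholds in MS against PLA, 1730, ran from 57 to 5967. The causes were not tested.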
